A study of Mus musculus with 9 samples.

Results

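The 6 genes studied here mark the basal layer of the urothelium, the epithelium lining the bladder, and were followed across the arrays of a mouse bladder cancer study. They were Trp63, the keratin genes Krt5, Krt14 and Krt15, the P-cadherin gene Cdh3 and the hyaluronan receptor gene Cd44. The members were taken by symbol from the array's probe-to-gene table, and where a gene had several probe sets the brightest by its mean over 9 arrays stood for it. The set therefore held 6 of 17097 measured genes, and 6 of the 6 lay above the filter on low values that left 11969 genes for testing.

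Each array measured RNA from whole frozen bladder of female C57BL/6J mice, and the labels divide the 9 arrays into experiment 1 with 5 arrays and experiment 2 with 4. Both experiments held a healthy bladder given PBS and an MB49 tumour bladder given PBS, called sham here. MB49 is a mouse bladder carcinoma cell line, placed in the bladder on day 0 after poly-L-lysine had been instilled. Experiment 1 also held MB49 tumour bladders treated with alpha1-oleate at 1.7 mM, 8.5 mM and 17 mM, 1 array each. Alpha1-oleate is a complex of a peptide from alpha-lactalbumin with oleate. It was given into the bladder on 5 days, from day 3 to day 11, and tumour bladders were taken on day 12. Experiment 2 also held bladders labelled healthy, given 17 mM alpha1-oleate and taken 24 h or 7 d later, 1 array each. All tumours came from 1 cell line, and a whole bladder holds graft and host tissue together. The labels do not say how many animals an array stands for, so p-values measure the spread between arrays, which may be partly technical.

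The urothelium is a layered epithelium in which basal cells sit on the basement membrane, intermediate cells lie above them and umbrella cells face the urine. p63, the product of Trp63, is a transcription factor of the p53 family that basal cells of stratified epithelia need in order to form and persist. Keratins build intermediate filaments as pairs of a type I and a type II chain: Krt5 is type II and its usual partner Krt14 is type I, as is Krt15. In bladder cancer KRT5, KRT14, CDH3 and CD44 are used as markers of basal tumours. CD44 is also carried by leukocytes and many mesenchymal cells.

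Values are log2 intensities after robust multi-array averaging (RMA), deposited by the authors. The sorted values of arrays of 1 experiment differed by a mean of 0.022, and those of different experiments by 0.329, so levels are compared within an experiment. Array medians were 4.42 to 4.45 in experiment 1 and 4.2 to 4.24 in experiment 2. Tests used limma with the experiment as a block, and a gene was called at a Benjamini-Hochberg adjusted p under 0.05 over 11969 genes. Groups with 1 array were assumed to vary like the PBS groups. A difference given with an SE is the fitted one. For a group with 1 array the fit uses the PBS arrays of both experiments. Its value can therefore depart from the difference within that array's own experiment. The array labelled healthy, 17 mM, 24 h stood apart from the other bladders labelled healthy. Its root-mean-square distance from the healthy PBS array of its experiment was 0.522 log2 units, against 0.321 for the 7 d array. Its 9 proliferation markers summed to 1721 linear units, against 838 in healthy PBS and 659 at 7 d. It is called by its label throughout, and whether it held tumour was not tested. Leaving it out moved 1 call among the members in the comparisons that do not use it, that of Cd44 at 8.5 mM, whose adjusted p was then 0.0502.

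**Figure D1:**
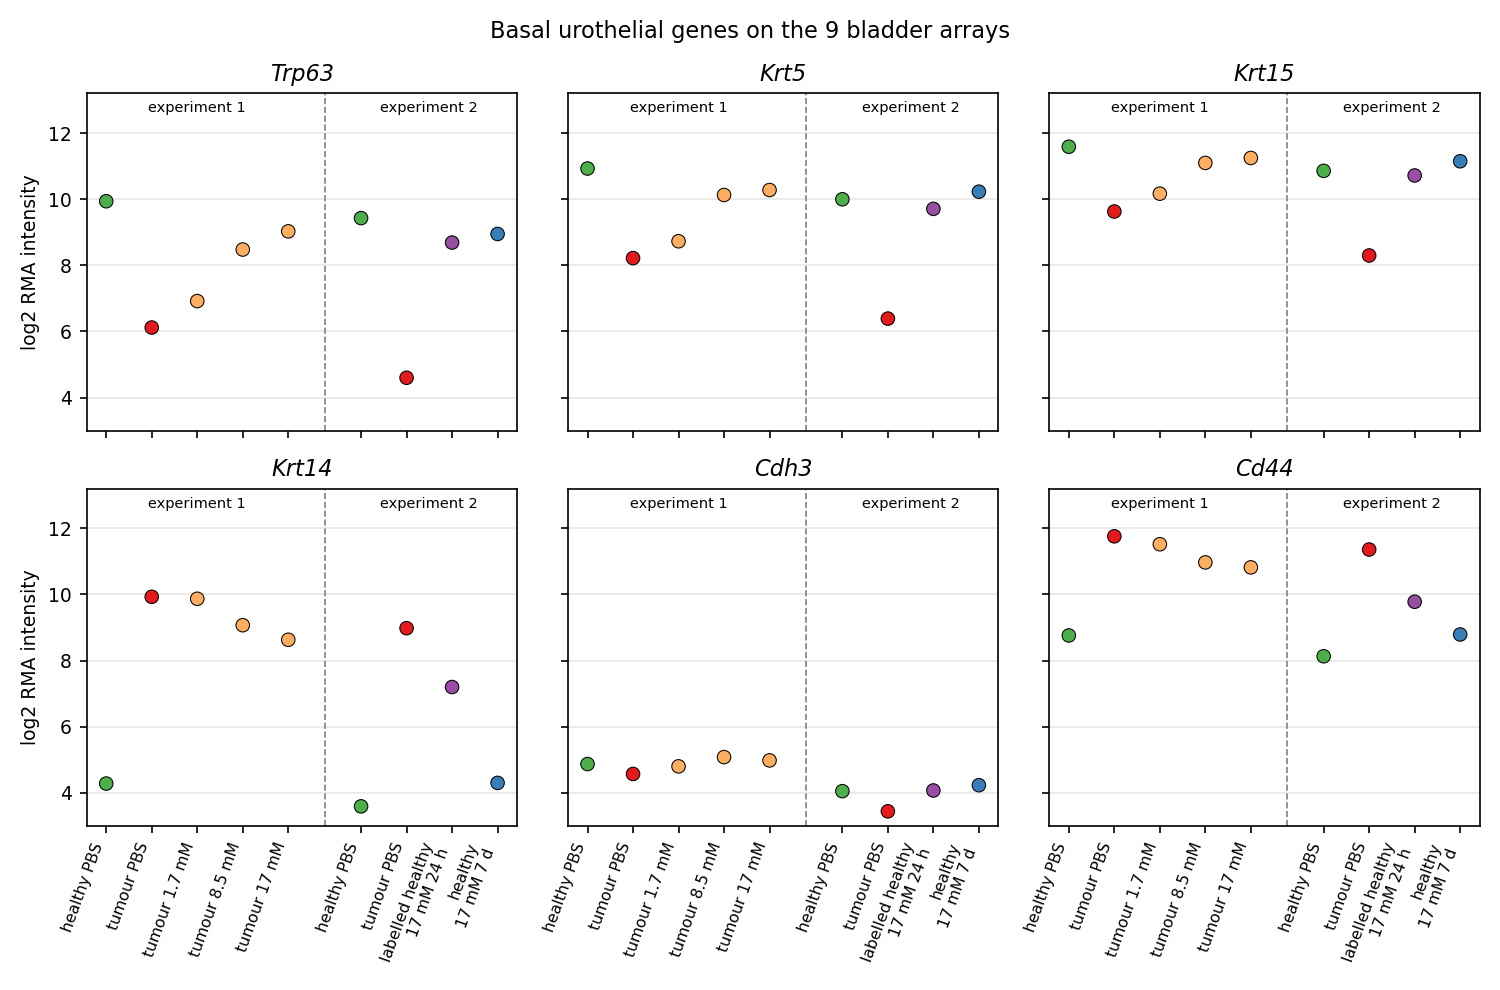
Log2 RMA intensity of the 6 genes (y axis) on each of the 9 arrays (x axis), 1 point per array, with a dashed line between the 2 experiments. Trp63, Krt5 and Krt15 have their lowest point of each experiment in the sham tumour, while Krt14 and Cd44 have their highest there and Cdh3 stays between 3.44 and 5.08.

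Sham tumour bladders were compared with healthy bladders first, 2 arrays against 2. Trp63, Krt5 and Krt15 fell, Krt14 and Cd44 rose, and Cdh3 did not pass the test. In all, 5 of 6 were called, where 57.2% of all tested genes were called in this comparison (28.6% higher and 28.6% lower). In whole bladder RNA, fewer cells of a type and less RNA per cell cannot be told apart.

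Trp63 stood at 9.94 in the healthy bladder of experiment 1 and at 9.43 in that of experiment 2, and at 6.12 and 4.6 in the matching sham tumours. In each experiment the sham tumour lay far below the healthy array. Trp63 fell by 4.33 on the log2 scale (SE 0.294, n = 2 against 2, limma adjusted p = 0.00365), a 20-fold lower level. This was rank 22 from the lowest among 11969 genes. Within the experiments the difference was -3.82 and -4.83.

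Krt5, the type II keratin of basal cells, stood at 10.93 and 10 in the healthy bladders and at 8.22 and 6.39 in the sham tumours of experiments 1 and 2. The difference was larger in experiment 2 (-3.61) than in experiment 1 (-2.71), as for Trp63. Krt5 fell by 3.16 (SE 0.265, n = 2 against 2, limma adjusted p = 0.00476), an 8.94-fold lower level. Krt15, a type I keratin of basal and progenitor-like cells in stratified epithelia, stood at 11.59 and 10.86 in the healthy bladders and at 9.63 and 8.3 in the sham tumours. It fell by 2.26 (SE 0.188, limma adjusted p = 0.00469), the least of the 3 genes that fell.

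Krt14, the type I partner of Krt5, went the other way. It stood at 4.28 and 3.59 in the healthy bladders, close to the filter value of 4.16, and at 9.93 and 8.98 in the sham tumours. Within each experiment Krt14 thus lay low in the healthy bladder and far higher in the sham tumour. It rose by 5.52 (SE 0.113, n = 2 against 2, limma adjusted p = 0.0024), 45.9-fold on the measured values. Its healthy values lie about the filter value, so this fold may be too small and is given no rank. The change of Krt14 minus that of Krt5 was 8.36 in experiment 1 and 9 in experiment 2. That these keratins part in the tumour was known when the genes were chosen, so the gap and the split of the 6 genes in direction are descriptions.

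Cd44, the receptor for hyaluronan in the extracellular matrix, stood at 8.76 and 8.13 in the healthy bladders and at 11.76 and 11.36 in the sham tumours. It rose by 3.115 (SE 0.108, n = 2 against 2, limma adjusted p = 0.0024), an 8.66-fold higher level. Its difference was close to even between experiments, 3 and 3.23. Cdh3, the P-cadherin of basal cell junctions, stood at 4.87 and 4.05 in the healthy bladders and at 4.57 and 3.44 in the sham tumours. The difference of -0.455 (SE 0.123, limma adjusted p = 0.0519) did not pass. With all arrays quantile-normalized together it passed at an adjusted p of 0.0304. Its levels lay close to the filter value on every array, which limits what this probe set can show.

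The genes' other probe sets were read as a check on these directions. The Krt14 probe set used here carries an x in its name, the maker's mark for probes shared with similar sequences, so signal from related keratins cannot be set aside for it. The second Krt14 probe set, without that mark, differed by 5.62 and 4.75 in experiments 1 and 2, and by 5.185 in a fit over 18341 probe sets (SE 0.258, limma adjusted p = 0.00312). Trp63 had 4 probe sets, and all 4 were lower in the sham tumour of both experiments. The 3 that were not used lay low, between 2.91 and 5.2, and differed by -0.35 to -1.89, so the size of the Trp63 fall rests on the brightest one. With the mean of the 4 it was -1.925. Of the 4 Cd44 probe sets, 3 rose, by 3.115, 3.365 and 4.525, and the fourth stayed between 2.8 and 2.97 on all arrays. The second Cdh3 probe set lay below the filter and differed by 0.02 and 0.12. Krt5 and Krt15 had 1 probe set each.

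**Figure D2:**
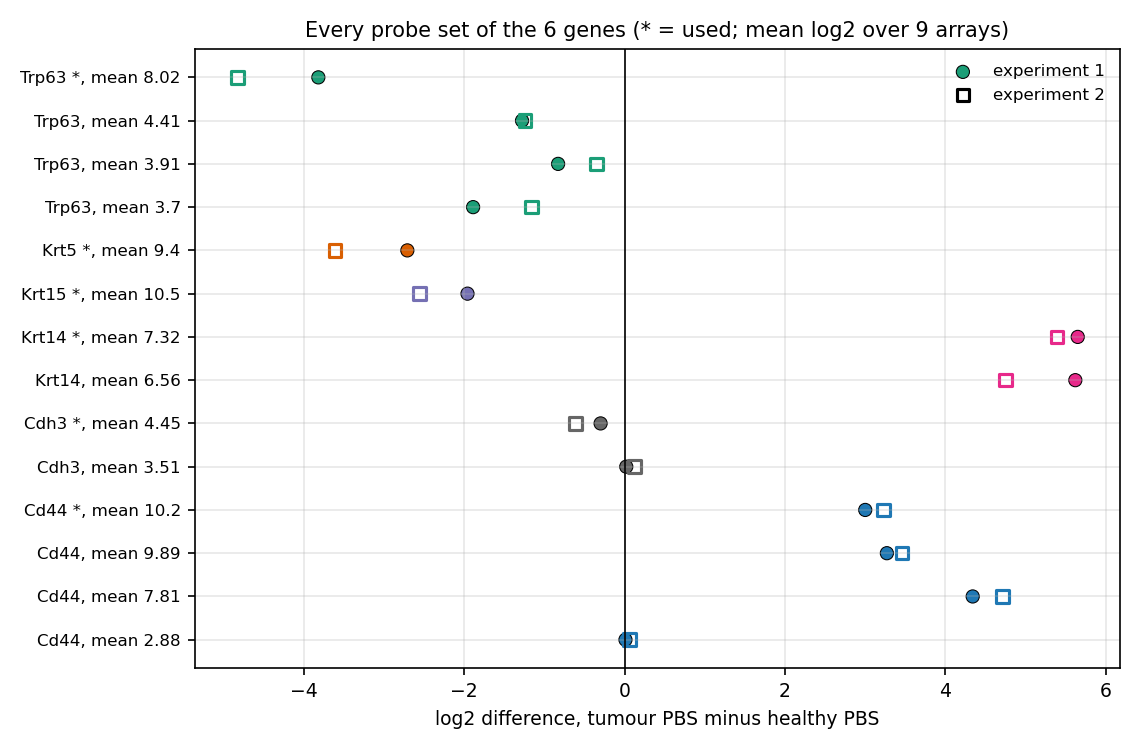
Log2 difference between the sham tumour and the healthy PBS array (x axis) for each probe set of the 6 genes (y axis, with its mean over 9 arrays), filled circles for experiment 1 and open squares for experiment 2. Both Krt14 probe sets lie between 4.75 and 5.65, and all 4 Trp63 probe sets lie below 0.

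Krt5 and Krt14 lie on different chromosomes in the RefSeq annotation of GRCm38.p6: Krt5 at chr15:101707069-101712905, in 5837 bases, and Krt14 at chr11:100203162-100207510. Krt15 lies near Krt14, at chr11:100131759-100135949, so the keratin that rose and a keratin that fell share a cluster. Trp63 spans 208326 bases at chr16:25683763-25892088, and Cd44 lies at chr2:102811141-102901669. RefSeq windows upstream of the start site were found for Krt5, Krt14 and Cd44. The Krt14 entry starts 1480 bases inside the gene and is not shown. The 250 bases before the start of Krt5, which fell with Trp63, and of Cd44, which rose, are given below, 5′ to 3′ on the minus strand that both genes are read from, at chr15:101712906-101713155 and chr2:102901666-102901915 (GRCm38.p6).
Krt5: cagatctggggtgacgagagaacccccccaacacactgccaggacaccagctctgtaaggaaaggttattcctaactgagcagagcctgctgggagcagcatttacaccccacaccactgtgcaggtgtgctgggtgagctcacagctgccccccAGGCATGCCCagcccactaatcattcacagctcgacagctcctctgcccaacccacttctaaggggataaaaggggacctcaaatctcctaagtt
Cd44: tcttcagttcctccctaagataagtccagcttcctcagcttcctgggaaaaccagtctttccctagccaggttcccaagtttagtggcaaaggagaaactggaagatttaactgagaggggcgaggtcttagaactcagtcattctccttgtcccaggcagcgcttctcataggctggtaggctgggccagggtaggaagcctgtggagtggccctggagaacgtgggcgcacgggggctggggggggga
The capitals mark the letters that match the consensus half-site of the p53 family, the group of factors p63 belongs to. Krt5 held 1 such match, 95 bases before its start, and Cd44 held 0. Of 32851 RefSeq windows of this length, 7.13% held at least 1 match on either strand. The AP-1 motif TGANTCA was in 6.75% of windows and the AP-2 motif GCCNNNGGC in 13.7%, and neither was in either window. A match is a description of letters, and no array here measured binding.

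The keratin family was then read as a whole, with its type I and type II genes apart. Of 9 tested type I keratins, 6 fell and 1 rose, with a median difference of -0.83, against -0.005 over all genes. Over all genes 28.6% were called in each direction. Krt14 was the type I keratin that rose. Krt20, a keratin of umbrella cells, fell by 3.825 (SE 0.167), and Krt19, found in all urothelial layers, fell by 2.975 (SE 0.206). Krt18 and Krt10 fell by 0.66 and 0.91. Krt16, a keratin of activated epidermis, differed by 1.24 with an SE of 0.388 and did not pass (limma adjusted p = 0.072). Of 8 tested type II keratins, 5 fell and 1 rose, with a median of -0.817. The riser was Krt6a, a keratin of wounded and squamous epithelium, at 2.28 (SE 0.383, limma adjusted p = 0.0181). Krt7, a simple keratin of the urothelium, fell by 3.155 (SE 0.231), next to the 3.16 of Krt5. Krt8, its counterpart in simple epithelia, differed by -0.35 and did not pass (limma adjusted p = 0.0636). A further 12 keratins of these lists were measured but lay below the filter.

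**Figure D3:**
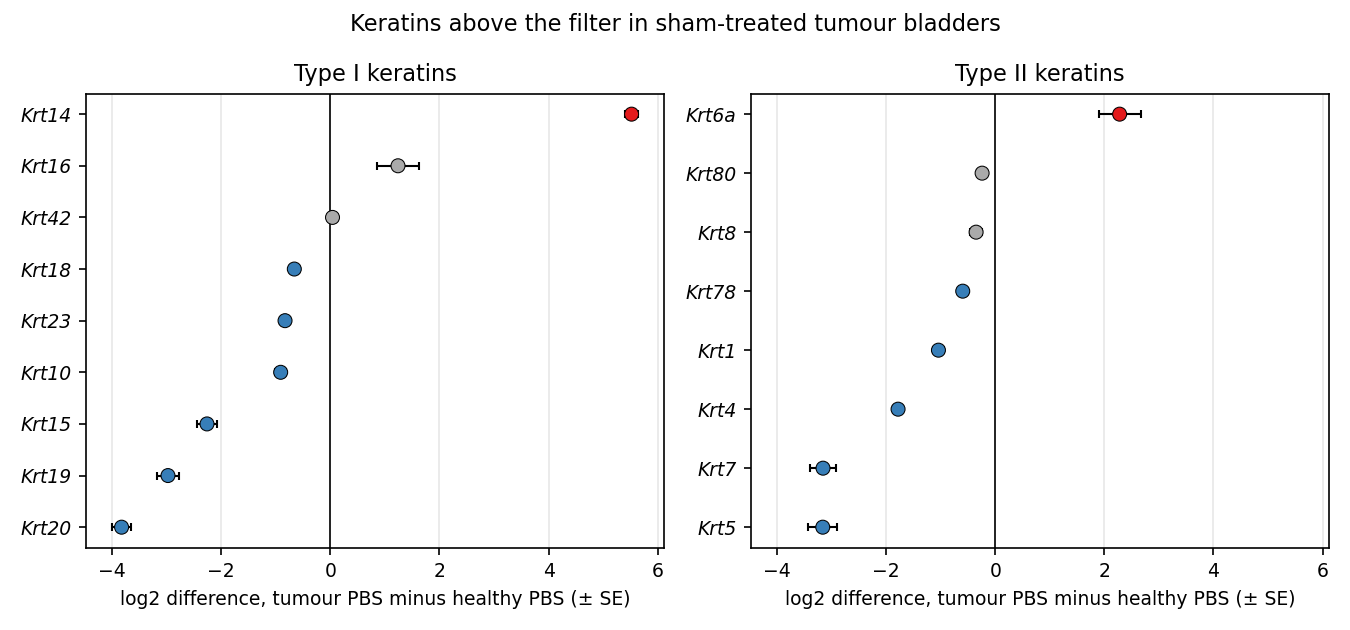
Log2 difference of sham tumour minus healthy PBS with its SE (x axis) for the 9 type I and 8 type II keratins above the filter (y axis), red where higher, blue where lower and grey where the test was not passed. Krt14 at 5.52 and Krt6a at 2.28 are the 2 called on the right, and Krt20, Krt7 and Krt5 lie at the left.

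Genes that work with p63 or downstream of it were counted from lists chosen with earlier results of these data known. Among 9 tested genes of the p53 family and the factors p63 works with, 7 fell and 1 rose, with a median of -1.855. Besides Trp63, Grhl3 and Zfp750, which drive late epidermal differentiation, fell by 3.88 and 2.075, and Sox15 fell by 2.58. Tfap2a, which encodes AP-2 alpha, was the one that rose, by 2.22 (SE 0.101). Of 18 known p63 targets and genes that anchor basal cells to the basement membrane, 7 fell, 5 rose and 6 did not pass, with a median of -0.195. The kinase gene Ripk4 fell by 4.46, the glycerol channel gene Aqp3 by 3.79, and the desmosome gene Perp fell by 3.58. The risers were Ngfr, the low-affinity neurotrophin receptor, by 3.975, and the integrin genes Itga3 by 3.375, Itga6 by 2.075, Itgb4 by 1.055 and Itgb1 by 0.85. Itga6, Itgb4 and Itgb1 are named after their values were seen, to give the risers in full. Over all genes 28.6% were called in each direction, so nothing particular to this list is read from its counts.

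The neighbours of Cdh3 and of Cd44 were counted in the same way, beside the 28.6% of all genes called in each direction. Of 12 tested cadherins and catenins, 7 fell and 2 rose, with a median of -0.782. Cdh1, the E-cadherin of all epithelial layers, fell by 3.075 (SE 0.167), a larger difference than the -0.455 of Cdh3. The neuronal catenin gene Ctnnd2 fell by 3.53. Of 15 genes for CD44 ligands, hyaluronan synthesis and CD44 partners, 10 rose and 3 fell, with a median of 2.16. The protease gene Mmp9 rose by 4.815, the hyaluronan receptor gene Hmmr by 3.24, the proteoglycan gene Vcan by 2.87, the hyaluronan-degrading Cemip by 2.755 and Srgn by 2.53. Has3, a hyaluronan synthase gene named after its value was seen, was among those that fell, at -0.93.

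Markers of other cells moved with both directions. All 13 markers of umbrella and intermediate cells fell with Krt5 (median -3.425). Their summed linear level was 22830 and 16910 in the healthy bladders and 2221 and 1386 in the sham tumours. Of 15 pan-epithelial markers, 14 fell and 1 rose, and their sums went from 13930 and 9039 to 1949 and 1106. The riser, named after its value was seen, was the claudin gene Cldn3, at 1.645. Of 17 leukocyte markers 16 rose with Krt14 and Cd44 (median 3.2), and their sums went from 1861 and 1249 to 15360 and 8686. All 9 proliferation markers rose (median 5.155). Of 12 mesenchymal markers tested, 2 rose and 2 fell. All 7 detrusor smooth muscle markers fell (median -1.335), with sums of 19540 and 17720 in the healthy bladders and 9963 and 6408 in the sham tumours. No marker is at 0, since RMA gives every probe set a positive value. The part of these cells in the members' differences was not tested.

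The dose series of experiment 1 was then compared with the sham tumours. At 17 mM, Trp63, Krt5 and Krt15 were higher and Krt14 and Cd44 lower than in sham. Thus 5 of 6 genes were called, each against its direction in the tumour, where 26.3% of all tested genes were called (15.7% higher and 10.6% lower). Of the called genes 59.6% were higher, against 49% after joint quantile normalization and 90.1% without the block, while the members' directions were the same in all 3 analyses. Both comparisons share the sham arrays, so the opposite signs are not independent of each other.

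Trp63 stood at 6.12, 6.92, 8.48 and 9.03 in the sham, 1.7 mM, 8.5 mM and 17 mM tumours of experiment 1, each array above the one before. The difference of 17 mM from sham was 3.16 (SE 0.389, n = 1 against 2, limma adjusted p = 0.0245), an 8.95-fold higher level and rank 83 of 11969. The second Trp63 probe set differed by 0.48 and did not pass over all probe sets (limma adjusted p = 0.0848), and the mean of the 4 probe sets differed by 1.027 (adjusted p = 0.0163). Krt5 stood at 8.22, 8.73, 10.13 and 10.28 in the same arrays, and most of its rise lay between 1.7 and 8.5 mM. Its difference at 17 mM was 2.285 (SE 0.351, limma adjusted p = 0.0329). Krt15 stood at 9.63, 10.17, 11.1 and 11.25, with the same bend. Its difference was 1.77 (SE 0.249, limma adjusted p = 0.0293).

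Krt14 stood at 9.93, 9.87, 9.07 and 8.63 in the sham, 1.7 mM, 8.5 mM and 17 mM tumours. It fell by 1.235 at 17 mM (SE 0.15, n = 1 against 2, limma adjusted p = 0.0239) and still lay 4.35 above the healthy array of its experiment. Cd44 stood at 11.76, 11.52, 10.97 and 10.82 and fell by 0.998 (SE 0.143, limma adjusted p = 0.0299). Without the experiment as a block the falls of Krt14 and Cd44 were -0.825 and -0.74 and neither was called (limma adjusted p = 0.511 and 0.612), while Trp63, Krt5 and Krt15 still were. The second Krt14 probe set differed by -1.192 and did not pass over all probe sets (limma adjusted p = 0.0997). Cdh3 stood at 4.57, 4.8, 5.08 and 4.98, and its difference of 0.488 did not pass (SE 0.162, limma adjusted p = 0.119).

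**Figure D4:**
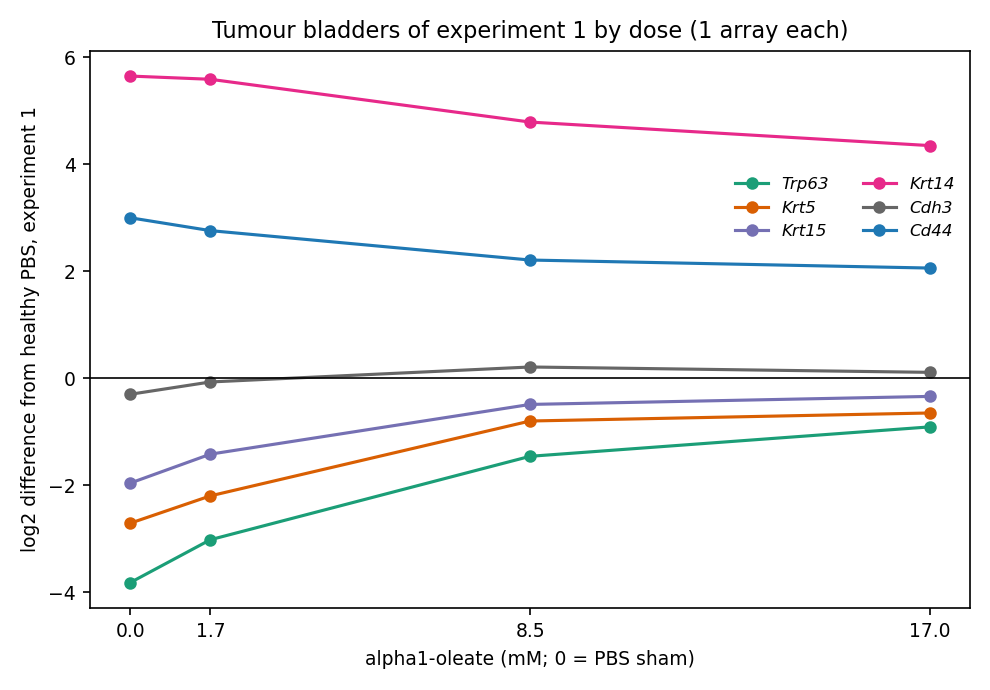
Log2 difference of each experiment 1 tumour array from the healthy PBS array of that experiment (y axis) against the alpha1-oleate dose in mM (x axis, 0 for PBS), 1 line per gene and 1 array per point. Trp63, Krt5 and Krt15 move from -3.82, -2.71 and -1.96 to -0.91, -0.65 and -0.34, while Krt14 goes from 5.65 to 4.35.

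At 8.5 mM, 4 of 6 genes were called, against 15.6% of all genes (11% higher and 4.65% lower). Trp63 was higher by 2.61 (SE 0.389, limma adjusted p = 0.0421), Krt5 by 2.135 (SE 0.351, adjusted p = 0.048) and Krt15 by 1.62 (SE 0.249, adjusted p = 0.0438), while Cd44 fell by 0.848 (SE 0.143, adjusted p = 0.0499). These calls lay just inside the threshold. With no filter on low values none of the 4 passed, where 1444 of all genes were called (1872 with the filter). Krt14 lay just outside it, at -0.795 (SE 0.15, limma adjusted p = 0.0585). It was called after joint quantile normalization (adjusted p = 0.015), with the lowest 50% left out (0.0464) and with a variance trend (0.0468). Without the block Cd44 had -0.59 and was not called (limma adjusted p = 0.921). At 1.7 mM, limma called 0 of 6 genes and 0% of all genes. At an unadjusted p under 0.05 it gave 0 members and 1595 genes. The differences from sham at 1.7 mM ran from -0.298 for Cd44 to 1.05 for Trp63, and that of Krt14 was 0.005.

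As a straight line over dose, with sham at 0 mM, 5 of 6 genes had a slope that was called, against 30.9% of all genes (16.5% upward and 14.4% downward). The slope was 0.18 log2 units per mM for Trp63 (SE 0.0332, limma adjusted p = 0.024), 0.134 for Krt5 (adjusted p = 0.0292), 0.1 for Krt15 (adjusted p = 0.0304), -0.078 for Krt14 (adjusted p = 0.0234) and -0.058 for Cd44 (adjusted p = 0.025). Cdh3 had 0.027 (adjusted p = 0.159). With dose as log2(mM + 1) the Cdh3 slope was 0.131 and was called (limma adjusted p = 0.0319), where 5284 of all genes were called. With the block, leaving out any 1 PBS array, or the 1.7 mM array, left 0 members and 0 of all genes called. Between the 17 and 1.7 mM arrays, a comparison added after the data were seen, limma called 0 members and 5.95% of all genes (4.06% higher and 1.89% lower), and 5 members had an unadjusted p under 0.05. The smallest adjusted p was that of Krt14, 0.0508, for a difference of -1.24.

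The genes differed in how much of the tumour difference was left. In experiment 1 the 17 mM array had covered 82.7% of the log2 gap between sham and healthy for Krt15, 76.2% for Trp63 and 76% for Krt5, and 31.3% for Cd44. At 8.5 mM the shares were 75%, 61.8%, 70.5% and 26.3% in that order, and at 1.7 mM they ran from 8% for Cd44 to 27.6% for Krt15. No share is given for Krt14, whose healthy value lies about the filter value, nor for Cdh3, whose gap was small. These shares come from single arrays and the differences between genes were not tested. Against healthy PBS, the 17 mM tumour still had higher Krt14, by 4.285 (SE 0.15, n = 1 against 2, limma adjusted p = 0.0364), and higher Cd44, by 2.12 (SE 0.143, limma adjusted p = 0.04). This was 2 of 6 genes, where 2.97% of all genes were called (2.61% higher and 0.368% lower). For Krt14 this difference too is taken against healthy values about the filter value. Trp63, Krt5, Krt15 and Cdh3 had -1.16, -0.875, -0.49 and 0.033, and none of these passed. With the mean of its probe sets Trp63 did, at -0.897 (limma adjusted p = 0.0466), which made 3 members called.

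Keratin and p63-related genes moved in the 17 mM tumour as follows. Of 9 type I keratins 4 rose and 1 fell against sham, with Krt20 at 3.17, Krt19 at 2.17 and Krt14 as the one that fell. Of 8 type II keratins 3 rose and 0 fell, namely Krt7 by 2.49, Krt5 by 2.285 and Krt4, a keratin of internal stratified epithelia, by 1.235. Krt6a differed by -0.235 and did not pass (limma adjusted p = 0.758). Among the factors around p63, 4 of 9 rose and 1 fell, with Pitx1 at 3.02, Grhl3 at 2.985 and Tfap2a at -1.925. Of the 18 p63 targets and anchoring genes 4 rose and 2 fell. Ripk4 rose by 3.29, Aqp3 by 3.025, Perp by 2.995 and Sfn, the gene of 14-3-3 sigma, by 2.36, while Ngfr fell by 2.02. Itga6, again named after its value was seen, fell by 0.833. Of 12 cadherins and catenins 3 rose and 0 fell, and of 15 genes around CD44, 1 rose and 2 fell, the 2 being Mmp9 at -1.148 and Srgn at -0.79. Over all genes 26.3% were called, and the lists named here lie on both sides of that share. Nothing particular to a list is read from its counts.

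Markers of other cells moved here too. Of 13 umbrella and intermediate markers 12 rose (median 2.625), and their summed level in experiment 1 went from 2221 in sham to 13660 at 17 mM. Of 15 pan-epithelial markers 14 rose (median 2.175), with sums of 1949 and 7712. Of 17 leukocyte markers 7 fell and 0 rose (median -0.6), with sums of 15360 and 9421. Of 9 proliferation markers 7 fell (median -1.562), and all 7 detrusor muscle markers rose (median 1.96). Of 12 mesenchymal markers 7 rose and 0 fell (median 0.955). Against healthy PBS, 10 of 17 leukocyte and 6 of 9 proliferation markers were still higher at 17 mM, as Krt14 and Cd44 were. Their part in the members' levels was not tested.

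The bladders of experiment 2 labelled healthy and given 17 mM were compared last. On the array labelled healthy, 17 mM, 24 h, Krt14 stood at 7.2, against 3.59 in the healthy PBS array and 8.98 in the sham tumour of the same experiment. Cd44 stood at 9.78, against 8.13 and 11.36. Both thus lay between the PBS arrays. Krt5 at 9.71, Krt15 at 10.72, Trp63 at 8.69 and Cdh3 at 4.07 lay near healthy PBS, at 10, 10.86, 9.43 and 4.05. Against healthy PBS limma called 0 of 6 members and 0% of all genes, while 2 members and 2503 genes had an unadjusted p under 0.05. These members were Krt14, at 3.675 (SE 0.15, limma adjusted p = 0.0568), and Cd44, at 1.59 (SE 0.143, limma adjusted p = 0.0766). Krt14 passed without the block, after joint quantile normalization, with the mean of its probe sets, with the 50% filter and with a variance trend, at limma adjusted p of 9.27e-07 to 0.0441. Cd44 passed after quantile normalization and with the trend (adjusted p = 0.00865 and 0.0378). The 17 leukocyte markers summed to 5373 on this array, against 1249 in healthy PBS, and the pan-epithelial ones to 6278, against 9039, and their part was not tested.

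Against sham tumours the same array had 5 of 6 genes called, against 30.6% of all genes (17% higher and 13.6% lower). Trp63 was higher by 3.84 (SE 0.389, limma adjusted p = 0.017, rank 22 from the highest), Krt5 by 3.095 (SE 0.351, adjusted p = 0.0192) and Krt15 by 2.27 (SE 0.249, adjusted p = 0.0184). Krt14 fell by 1.845 (SE 0.15, limma adjusted p = 0.0146) and Cd44 by 1.52 (SE 0.143, adjusted p = 0.0158). Cdh3 had 0.553 and did not pass (adjusted p = 0.0892). After joint quantile normalization the Cdh3 difference was 0.608 and was called. From the healthy PBS array of its experiment, this array differed by -0.74 for Trp63, -0.29 for Krt5, -0.14 for Krt15 and 3.61 for Krt14. For the 17 mM tumour of experiment 1 these differences were -0.91, -0.65, -0.34 and 4.35. Both arrays thus joined Trp63, Krt5 and Krt15 levels nearer to healthy with a Krt14 level nearer to the sham tumour.

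At 7 d, Krt5 stood at 10.23, Krt15 at 11.15, Trp63 at 8.95, Krt14 at 4.3, Cdh3 at 4.23 and Cd44 at 8.79. Each was within 0.71 log2 units of the healthy PBS array of its experiment. Limma called 0 members and 0% of genes against healthy PBS, with 2 members and 1096 genes at an unadjusted p under 0.05. These members were Krt14 at 0.775 (SE 0.15, limma adjusted p = 0.508) and Cd44 at 0.602 (SE 0.143, limma adjusted p = 0.52). Between the array labelled 24 h and the 7 d array, a comparison added after the data were seen, 0 members and 0% of genes were called. The largest difference among members was that of Krt14, at 2.9 (SE 0.16, limma adjusted p = 0.0914).

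The 7 groups were set in order by the fitted means. Trp63, Krt5 and Krt15 each had the 3 groups labelled healthy on top, then 17, 8.5 and 1.7 mM, and sham tumour last. For all 3 genes, every pair of neighbours from the top down to 8.5 mM differed by less than 2 SE. The step from 8.5 to 1.7 mM exceeded 2 SE, at 1.56 for Trp63 (SE 0.416), 1.4 for Krt5 (SE 0.375) and 0.93 for Krt15 (SE 0.266). The step from 1.7 mM to sham exceeded 2 SE too, but passed no test, even at an unadjusted p under 0.05. With so few degrees of freedom, 2 SE describes the order and is no test. Krt14 and Cd44 ran the other way, from the sham and 1.7 mM tumours at the top through 8.5 and 17 mM to the array labelled 24 h, then 7 d, with healthy PBS last. For Krt14 the 1.7 mM and sham tumours did not differ beyond 2 SE (0.005, SE 0.15). For Cd44 the 8.5 and 17 mM tumours did not (0.15, SE 0.153). For Cdh3 no pair of neighbours differed by 2 SE.

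Likeness between genes was measured as the root-mean-square distance over the 7 differences from the healthy PBS array of the same experiment. All 7 share those 2 arrays, so the distances are descriptions. Among the 15 pairs of members, Krt5 and Krt15 were closest, at 0.597 log2 units, followed by Krt5 and Trp63 at 0.811. Krt14 was closest to Cd44, at 2.25, and lay 6.36 from Krt5 and 7.12 from Trp63. Among all genes above the filter, those closest to Trp63 were Ehf (0.143), Ripk4 (0.169) and Pgap4 (0.22), and those closest to Krt5 were Tspan8 (0.101), Cdh1 (0.144) and Ivl (0.154). Those closest to Krt15 were Sulf2 (0.15), Ugt1a6a (0.164) and Gpx2 (0.164). Krt14 was most like Ms4a6d (0.178), Mki67 (0.213) and Cep55 (0.223). Cd44 was most like Spi1 (0.187), Gpsm3 (0.188) and Ifi30 (0.228). Cdh3 was most like Rnf122 (0.0526), Smad1 (0.0813) and Armc5 (0.107), genes that like it hardly moved. No member was among the 3 closest genes of another.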

How the data were processed

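Frozen bladder RNA was hybridised to Affymetrix arrays, per the labels' protocols. The submitters' processing notes name RMA and, as software, Transcriptome Analysis Console 4.0.1.36 for the deposited log2 values. Of 45077 probe sets 28898 name 1 gene, and 28689 were matched by Entrez number to RefSeq (GRCm38.p6). The lowest 30% of genes by mean (under 4.16) were left out. limma 3.58.1 in R 4.3.3 fitted all 9 arrays as 7 group means with the experiment as a block, with 1 residual and 2.23 prior degrees of freedom (3 residual for the dose slope). Experiment numbers come from the labels, and the deviations of same-numbered PBS arrays correlated at 0.647. Scripts were tested on simulated data, with differences of 1, 2 and 4 log2 units put into the sham tumour arrays. Against healthy PBS, 2.99%, 83.6% and 93.9% of these were called. A difference of about 1 log2 unit that did not pass is therefore not shown to be absent. These rates are for 2 arrays against 2. With 1 array in a group, larger differences also failed to pass. That of Krt14 on the array labelled 24 h against healthy PBS was 3.675. The members and lists were chosen with earlier results of these data known, and the p53-family half-site after the Krt5 window had been read. Genes named from a list were the 5 with the largest called difference in the tumour and the 4 at 17 mM, any keratin, and the 3 nearest genes by distance. Alternatives were no block, joint quantile normalization, the mean of a gene's probe sets, other filters, a variance trend, log2(mM + 1) dose, and leaving out arrays.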

Additional observations from a re-analysis of the deposited data

How the results depend on the processing

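In sham tumour against healthy PBS, each alternative with a test called 5 or 6 members, with the called directions kept. Cdh3 was fitted in 14 settings of this comparison and each other member in 15. All called genes numbered 3172 there without the replicate block and 7399 after quantile normalization (6852 as reported). Krt14 minus Krt5, the mean of the differences within experiments, was recomputed in 6 alternatives and ranged from 8.36 to 9 (8.68 as reported). With the replicate block, leaving out a PBS array leaves group means without a test. So arrays were also left out with no replicate block.

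Without the replicate block, 3 genes were called at 17 mM against sham (5 as reported), 1 on the array labelled 24 h against healthy PBS (0) and 1 for the dose slope (5). All called genes then numbered 3172 in sham tumour (6852), 1217 at 17 mM (3147), 945 at 8.5 mM (1872), 36 at 1.7 mM (0), 590 at 17 mM against healthy (356), 126 and 1391 for the array labelled 24 h against healthy and sham (0 and 3657), 15 at 7 d (0) and 1125 for the slope (3698). The median of all genes at 17 mM against sham moved from -0.045 to 0.17. Small uncalled differences changed sign: Krt15 at 17 mM against healthy to 0.025, Krt15 and Cdh3 on the array labelled 24 h to -0.505 and -0.39, and Krt5, Krt15 and Cdh3 at 7 d to -0.235, -0.075 and -0.23.

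On the array labelled 24 h against healthy PBS, quantile normalization and the variance trend called 2 genes each, and the mean of probe sets and the 50% filter 1 each. With no filter 0 members and 1444 of all genes were called at 8.5 mM. After quantile normalization the uncalled Krt14 difference at 1.7 mM became -0.099 and that of Cdh3 at 17 mM against healthy -0.057. All called genes at 17 mM against healthy numbered 2201 after quantile normalization, 684 with the mean of probe sets, 577 with the 50% filter, 732 with the trend and 202 with no filter. On the array labelled 24 h they numbered 788, 96, 121, 198 and 0. Quantile normalization gave 28 at 7 d and 3275 at 8.5 mM. The higher share of calls moved from 70.2% to 55.7% at 8.5 mM and from 87.6% to 53.7% at 17 mM against healthy.

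Leaving out 1 PBS array with no replicate block leaves 1 array in a group, so no counts are given for those fits. On the array labelled 24 h against healthy, more members were called than reported. At 1.7 mM against sham, Krt5 and Trp63 gained a call without sham array 1, at 2.34 and 2.32. Fewer members were called at 17 mM and at 8.5 mM against sham and for the slope. The array labelled 24 h against sham lost the calls of Krt5 and Krt15 without sham array 2, at 1.49 and 1.09. Without sham array 1 it lost that of Cd44, at -1.58. At 17 mM against healthy, Cd44 lost its call without healthy array 2, at 2.06. In each fit where the members' calls moved, those over all genes moved the same way. With the block the slope had 0 to 5. Its genes numbered 0 without any 1 PBS array or the 1.7 mM array and 2415 without 17 mM. Of the uncalled differences, those that changed sign were Krt5 and Krt15 at 17 mM against healthy (0.28 and 0.39 without healthy array 1), Krt14 at 8.5 mM and Cd44 at 1.7 mM (0.09 and 0.16 without sham array 1), and Krt14 at 1.7 mM (-0.06), Cdh3 in sham tumour (0.11) and Cdh3 on the array labelled 24 h against sham (-0.5), each without sham array 2. On the array labelled 24 h against healthy, Krt15 was -0.14 without healthy array 1, and without healthy array 2 Krt15 and Cdh3 were -0.87 and -0.8. At 7 d, Krt5, Krt15 and Cdh3 were then -0.7, -0.44 and -0.64. The causes were not tested.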
